A study of Mus musculus with 48 samples.

Results

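The loss of the second Msh3 allele was examined in the cerebral cortex of mice without the Huntington disease allele, as the difference between libraries labelled Msh3-/- and libraries labelled Msh3+/-. Libraries were taken by the genotype in their titles, 8 labelled Msh3-/- and 8 labelled Msh3+/-, which made 16 of the 48 libraries of the series, and all expressed genes were tested. All mice were labelled C57BL/6 and 12 months old, and each genotype had 4 females and 4 males. The other groups, of 8 libraries each, were Q140 Msh3-/-, Q140 Msh3+/-, Q140 and wild type (WT); Q140 is a heterozygous knock-in of an expanded CAG repeat into Htt, and neither group of the main comparison carried it. Below, Msh3-/- and Msh3+/- stand for the libraries labelled so. The labels do not say which part of Msh3 was altered or whether the groups were littermates, and replicates are numbered titles. The p-values therefore measure the spread between libraries, which the main fit estimated over all 48. Library names carry prefixes whose meaning is not stated, and 4 of them occur in both groups.

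MSH3 is a subunit of MutSβ, the mismatch repair complex that binds insertion and deletion loops in DNA. MSH6 belongs to the sister complex MutSα, which binds base mismatches and small loops, and MutL complexes act after recognition. In brain, MutSβ is best known for driving the growth of CAG repeats in somatic cells, and Msh3+/- mice already carry only 1 normal allele.

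Of 19547 genes tested, 5 (0.0256%) passed an adjusted p of 0.05, and all 5 lay on chromosome 13 within 5 Mb of Msh3. The Msh3 count itself was higher in Msh3-/-, and Rasgrf2, Cmya5, AW495222 and Fam169a were lower. Farther than 20 Mb from Msh3, edgeR called 0 of 19334 genes, with 1097 at an unadjusted p under 0.05, while limma-voom called 0 and DESeq2 called 1 (Ttr). The 19334 genes include 73 without a matched position, counted here as outside the window. The promoters of Rasgrf2 and Cmya5 are printed first, because these genes were lower in Msh3-/- with separated ranges both with and without Q140. Each is the RefSeq window of 300 bases, from 250 before to 50 after the start site, on GRCm38.p6, read 5′ to 3′ on the gene's own strand. Rasgrf2 spans chr13:92131779-92132078 and Cmya5 spans chr13:93144675-93144974, both on the minus strand. Capitals mark the GC box (GGGCGG or its complement CCGCCC).
Rasgrf2: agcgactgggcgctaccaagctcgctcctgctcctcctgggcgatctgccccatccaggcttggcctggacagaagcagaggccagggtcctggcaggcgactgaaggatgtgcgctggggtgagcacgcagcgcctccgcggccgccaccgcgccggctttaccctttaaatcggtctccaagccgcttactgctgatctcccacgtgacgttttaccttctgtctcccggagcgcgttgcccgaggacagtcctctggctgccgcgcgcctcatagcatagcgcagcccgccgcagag
Cmya5: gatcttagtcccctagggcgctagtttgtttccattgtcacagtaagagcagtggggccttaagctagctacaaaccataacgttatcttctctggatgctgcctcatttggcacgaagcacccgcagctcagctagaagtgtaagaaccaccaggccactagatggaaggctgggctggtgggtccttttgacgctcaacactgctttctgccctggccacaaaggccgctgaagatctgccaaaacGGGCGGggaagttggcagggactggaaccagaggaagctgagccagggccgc
The Cmya5 window held 1 GC box and the Rasgrf2 window held none. Of 32851 mouse promoter windows in the same table, 35.7% held a GC box on either strand. The RefSeq start of Rasgrf2 was 172 bases from the M21 start. These letters describe the windows, and binding was not measured.

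Msh3 (ENSMUSG00000014850, chr13:92211872-92355003, GRCm38) is the targeted gene and its count did not fall with the labelled loss. Levels are in CPM, the count as a share of the normalized library size, per 1e+06 counts. In Msh3-/- the lowest, median and highest libraries had 84.2, 98.3 and 108 CPM, and in Msh3+/- they had 55.3, 60.6 and 64.7 CPM. Every library labelled Msh3-/- was above every library labelled Msh3+/-, and all of these were above the WT libraries, which ran from 20.5 to 23.5 CPM. The means were 99.2 ± 8.15 CPM in Msh3-/- and 60.1 ± 3.06 CPM in Msh3+/- (SD, n = 8 each), a log2 fold change of 0.72 ± 0.041 (SE; edgeR adjusted p = 4.02e-19). A count over the whole gene does not show whether the altered part is transcribed, so it does not check the loss of MSH3 protein, although it separated the 3 labelled genotypes completely. On the linear scale, Msh3-/- stood 39.1 ± 3.08 CPM above Msh3+/-, and Msh3+/- stood 37.7 ± 1.16 CPM above WT (SE). These increments differed by 1.33 ± 3.62 CPM, less than their error. On the log2 scale the second step was the smaller one, with a difference between steps of -0.71 ± 0.074 (edgeR adjusted p = 8.43e-09), and of -0.69 ± 0.074 with Q140 (adjusted p = 1.92e-08), a contrast added after the values were seen. Among mice with Q140 the increments were 37.4 ± 3.03 CPM for the second allele and 36.1 ± 1.12 CPM for the first. The comparisons with WT share libraries with the main comparison and with each other.

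**Figure D1:**
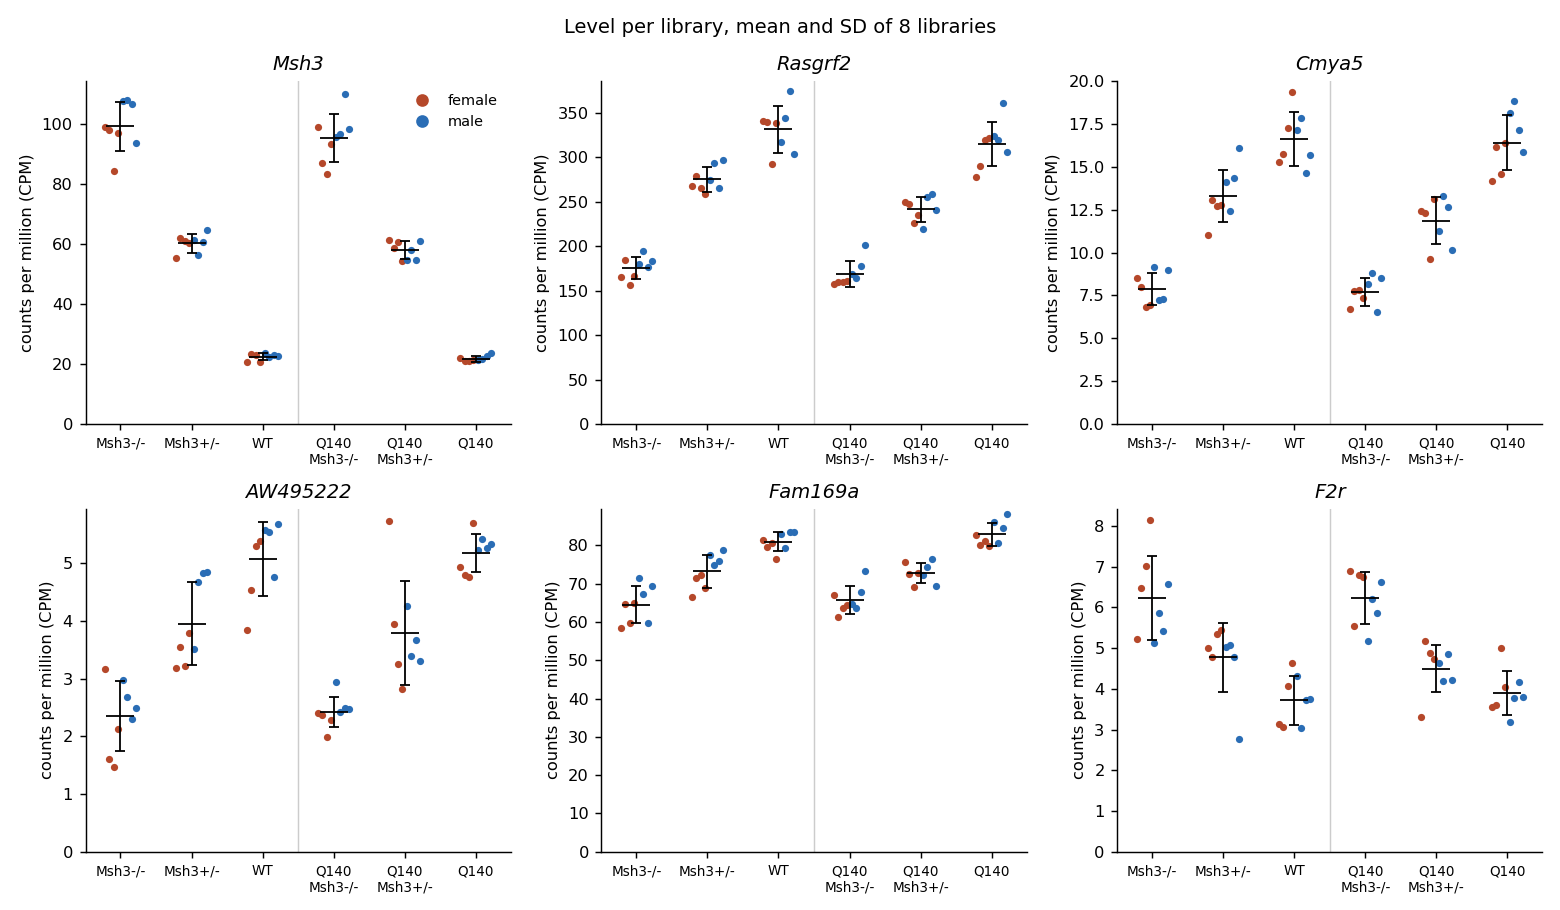
CPM in each library (points, female and male) with the mean and SD of 8 libraries (bars) for 6 genes, in 6 groups. Msh3 runs from 84.2 to 108 CPM in Msh3-/- and from 55.3 to 64.7 CPM in Msh3+/-, and Rasgrf2 and Cmya5 separate the same groups in the other direction, without and with Q140.

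Rasgrf2 (chr13:91880400-92131656) encodes an exchange factor that activates Ras and Rac and marks upper-layer cortical neurons. Its start lies 0.0802 Mb from the end of Msh3. In Msh3-/- its lowest, median and highest levels were 156, 178 and 194 CPM, and in Msh3+/- they were 258, 271 and 297 CPM. No Msh3-/- library reached the lowest Msh3+/- library. The means were 176 ± 12.5 CPM in Msh3-/- and 275 ± 13.9 CPM in Msh3+/- (SD, n = 8 each), and the log2 difference was -0.65 ± 0.044 (SE; edgeR adjusted p = 4.28e-16). WT stood above both at 331 ± 26.1 CPM, with the WT and Msh3+/- ranges overlapping. The difference Msh3-/- minus Msh3+/- was -99.5 ± 6.61 CPM, and Msh3+/- minus WT was -55.9 ± 10.4 CPM (SE). Among mice with Q140, Q140 Msh3-/- minus Q140 Msh3+/- was -72.6 ± 7.14 CPM, and Q140 Msh3+/- minus Q140 was -73.3 ± 10.1 CPM. The same contrast of the second against the first step on the log2 scale gave -0.38 ± 0.076 without Q140 (edgeR adjusted p = 0.0516).

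Cmya5 (chr13:93040713-93144724), which encodes myospryn, a protein first described in striated muscle, was the third gene with separated ranges. Its lowest, median and highest levels were 6.83, 7.64 and 9.17 CPM in Msh3-/-, against 11.0, 12.9 and 16.1 CPM in Msh3+/-. All 8 Msh3-/- libraries were below all 8 Msh3+/- libraries. The means were 7.87 ± 0.929 CPM in Msh3-/-, 13.3 ± 1.52 CPM in Msh3+/- and 16.6 ± 1.55 CPM in WT (SD, n = 8 each), and the log2 fold change of Msh3-/- over Msh3+/- was -0.76 ± 0.075 (SE; edgeR adjusted p = 5.89e-10). AW495222 (chr13:93706182-93719175), an antisense gene model, had 1.47, 2.40 and 3.17 CPM in Msh3-/-, against 3.19, 3.67 and 4.86 CPM in Msh3+/-. Its ranges stood side by side without overlap, and the log2 difference was -0.73 ± 0.119 (SE; edgeR adjusted p = 0.000477). The whole model lies within Dmgdh, the mitochondrial dimethylglycine dehydrogenase gene on the other strand, and the strand setting of the counting is not stated. Dmgdh had 1.26 CPM in Msh3-/- and 0.980 CPM in Msh3+/-, a log2 fold change of 0.32 ± 0.186 that was not called. Set against 0.554 CPM in WT, however, Dmgdh stood 1.18 ± 0.213 higher in Msh3-/- on the log2 scale (edgeR adjusted p = 0.00141). The AW495222 call was lost with females alone (edgeR adjusted p = 0.999) and with a replicate block (0.104). It was also lost without the 12 libraries flagged for choroid plexus or pituitary transcripts (0.243), which leaves 7 Msh3-/- and 4 Msh3+/- libraries. A library was flagged when its mean log2 CPM over either list was more than 2 above the median library of the series. Msh3+/- M2 was flagged by choroid plexus genes, and the others by pituitary genes, of which 3 were tested.

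Fam169a (chr13:97067286-97131013), 4.71 Mb from Msh3, showed the smallest of the called differences. Its lowest, median and highest levels were 58.4, 64.8 and 71.6 CPM in Msh3-/-, against 66.6, 73.6 and 78.7 CPM in Msh3+/-. The ranges overlapped between 66.6 and 71.6 CPM. The log2 fold change was -0.18 ± 0.033 (edgeR adjusted p = 0.00412), on means of 64.5 ± 4.85 CPM in Msh3-/- and 73.3 ± 4.28 CPM in Msh3+/-. The call was lost with only the 16 libraries compared (edgeR adjusted p = 0.34), with a replicate block (0.28) and with either sex alone (0.999 and 0.637). It was also lost without the 12 libraries flagged for choroid plexus or pituitary transcripts (0.19). The log2 fold change stayed between -0.19 and -0.17 in these fits. Fam169a overlaps Nsa2 by 1590 bases on the opposite strand.

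The called genes were 1 higher and 4 lower of 19547 tested, or 0.0256% of genes, and 1121 genes (5.73%) had an unadjusted p under 0.05. Counted by ranges that do not overlap, 5 genes (0.0256%) separated Msh3-/- from Msh3+/-: Msh3, Rasgrf2, Cmya5, AW495222 and AA467197. AA467197, on chromosome 2, is a gene of very low level (0.0789 CPM in Msh3-/- and 0.175 CPM in Msh3+/-) that was not called (edgeR adjusted p = 0.864). Within 2 Mb of Msh3, 30 genes were tested and 4 were called, within 5 Mb 66 were tested and 5 were called, and within 20 Mb 213 were tested and 5 were called. An unadjusted p under 0.05 was reached by 24 of the 213 genes, or 11.3%, and by 5.67% of the 19334 genes outside the window. Many neighbours were near 0: Zfyve16, an endosomal adaptor gene 0.132 Mb away, had -0.01 ± 0.041, and Serinc5, which encodes a membrane protein that restricts retroviruses, had -0.04 ± 0.043 (log2). Between Rasgrf2 and Cmya5, Msh3 was the sole gene called; Mtx3, a mitochondrial import gene there, had -0.07 ± 0.039.

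**Figure D2:**
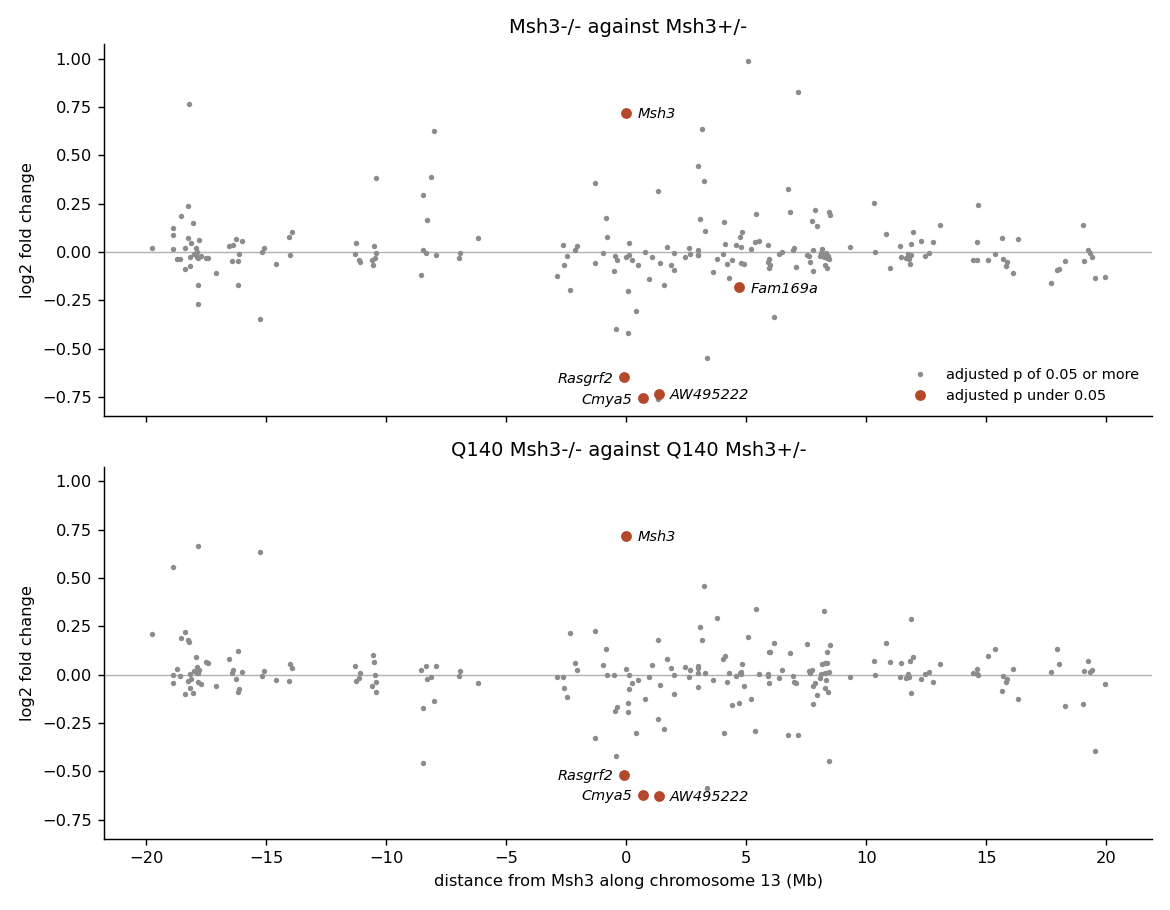
Log2 fold change (vertical axis) of the 213 genes tested within 20 Mb of Msh3 against distance from Msh3 in Mb (horizontal axis), without Q140 above and with Q140 below; large points have an adjusted p under 0.05. The called genes lie between -0.0802 and 4.71 Mb, among uncalled genes of which many lie near 0.

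Of the uncalled genes, F2r, Ankrd34b, Bhmt2 and F2rl2 lay within 3.34 Mb of Msh3. F2r, which encodes the thrombin receptor PAR1, had 6.23 ± 1.03 CPM in Msh3-/- and 4.78 ± 0.85 CPM in Msh3+/- (SD, n = 8 each; log2 fold change 0.37 ± 0.095, edgeR adjusted p = 0.543). Its ranges of 5.13 to 8.16 CPM in Msh3-/- and 2.76 to 5.45 CPM in Msh3+/- overlapped narrowly. Ankrd34b, an ankyrin repeat gene 0.0709 Mb from Msh3, had 20.02 ± 1.66 CPM in Msh3-/- and 23.1 ± 1.33 CPM in Msh3+/- (-0.20 ± 0.05, adjusted p = 0.428). Bhmt2, a homocysteine methyltransferase gene, had 0.453 CPM in Msh3-/- and 0.771 CPM in Msh3+/- (-0.76 ± 0.2, adjusted p = 0.543). F2rl2, which encodes the thrombin receptor PAR3, was named after its value was seen and had 1.20 CPM in Msh3-/- and 1.78 CPM in Msh3+/- (-0.55 ± 0.18, adjusted p = 0.864); it lies inside Iqgap2, on the other strand. Against WT, the same fit called 22 genes (0.113%) in Msh3-/- and 6 genes (0.0307%) in Msh3+/-. The mean levels stood in 1 order: Rasgrf2, Cmya5, AW495222, Fam169a, Ankrd34b and Bhmt2 were lowest in Msh3-/- and highest in WT, and F2r was highest in Msh3-/- and lowest, at 3.72 ± 0.601 CPM, in WT. For Bhmt2 the log2 fold changes against WT were -1.12 ± 0.188 in Msh3-/- (adjusted p = 0.000325) and -0.36 ± 0.168 in Msh3+/- (adjusted p = 0.963).

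The same allele difference was measured in 16 other libraries, Q140 Msh3-/- against Q140 Msh3+/-, which share no library with the main comparison. Both comparisons came from the same fit, with a shared estimate of the spread. Some library name prefixes occur in both. Of 19547 genes, 4 (0.0205%) were called: Msh3, Rasgrf2, Cmya5 and AW495222, each in the direction it had without Q140. Msh3 had 95.3 ± 8.03 CPM in Q140 Msh3-/- and 57.9 ± 3.01 CPM in Q140 Msh3+/- (SD, n = 8 each), and the log2 difference was 0.72 ± 0.042 (edgeR adjusted p = 5.35e-19). Rasgrf2 had 169 ± 14.8 CPM in Q140 Msh3-/- and 241 ± 13.8 CPM in Q140 Msh3+/- (-0.52 ± 0.044, adjusted p = 3.65e-12). Cmya5 had 7.71 ± 0.807 CPM in Q140 Msh3-/- and 11.9 ± 1.38 CPM in Q140 Msh3+/- (-0.62 ± 0.077, adjusted p = 6.03e-07). AW495222 had a log2 fold change of -0.63 ± 0.12 (adjusted p = 0.0143), with ranges that overlapped: 1.99 to 2.94 CPM in Q140 Msh3-/- and 2.82 to 5.73 CPM in Q140 Msh3+/-. In this comparison AW495222 was called in 9 of 13 alternative fits. Fam169a, with -0.15 ± 0.033, was not called (adjusted p = 0.121), and neither was F2r, with 0.46 ± 0.097 (adjusted p = 0.062); alternatives called Fam169a in 1 of 13 and F2r in 3 of 13. Ranges did not overlap for 5 genes (0.0256%), 3 of which, Msh3, Rasgrf2 and Cmya5, were also separated without Q140. An unadjusted p under 0.05 was reached by 484 genes (2.48%), and by 16 of the 213 within 20 Mb of Msh3, or 7.51%.

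The difference itself was tested as an interaction, and no gene was called (edgeR quasi-likelihood test, 982 genes at an unadjusted p under 0.05; DESeq2 and limma-voom also called 0). For Msh3 the interaction was 0.0019 ± 0.058 on the log2 scale. For Rasgrf2 it was -0.13 ± 0.063 (unadjusted p = 0.0428, adjusted p = 0.919). Averaging the difference over mice with and without Q140, a contrast added after the values were seen that sets 16 libraries against 16, called 8 genes (0.0409%), 7 of them within 20 Mb of Msh3. F2r (0.42 ± 0.068, edgeR adjusted p = 0.000408) and Ankrd34b (-0.17 ± 0.035, adjusted p = 0.0219) joined the 5 genes called without Q140, and the gene model Gm17324, below 0.3 CPM in each group mean, was the call outside the window (1.39 ± 0.287, adjusted p = 0.0238). By sex, Msh3 had log2 fold changes of 0.78 ± 0.062 in males and 0.66 ± 0.063 in females, and Rasgrf2 had -0.62 ± 0.053 in males and -0.67 ± 0.054 in females. The interaction with sex, fitted on the 16 libraries, called no gene (edgeR, 758 genes at an unadjusted p under 0.05), and neither did the same test on all 48 libraries (865 genes); no other tool was run on it.

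**Figure D3:**
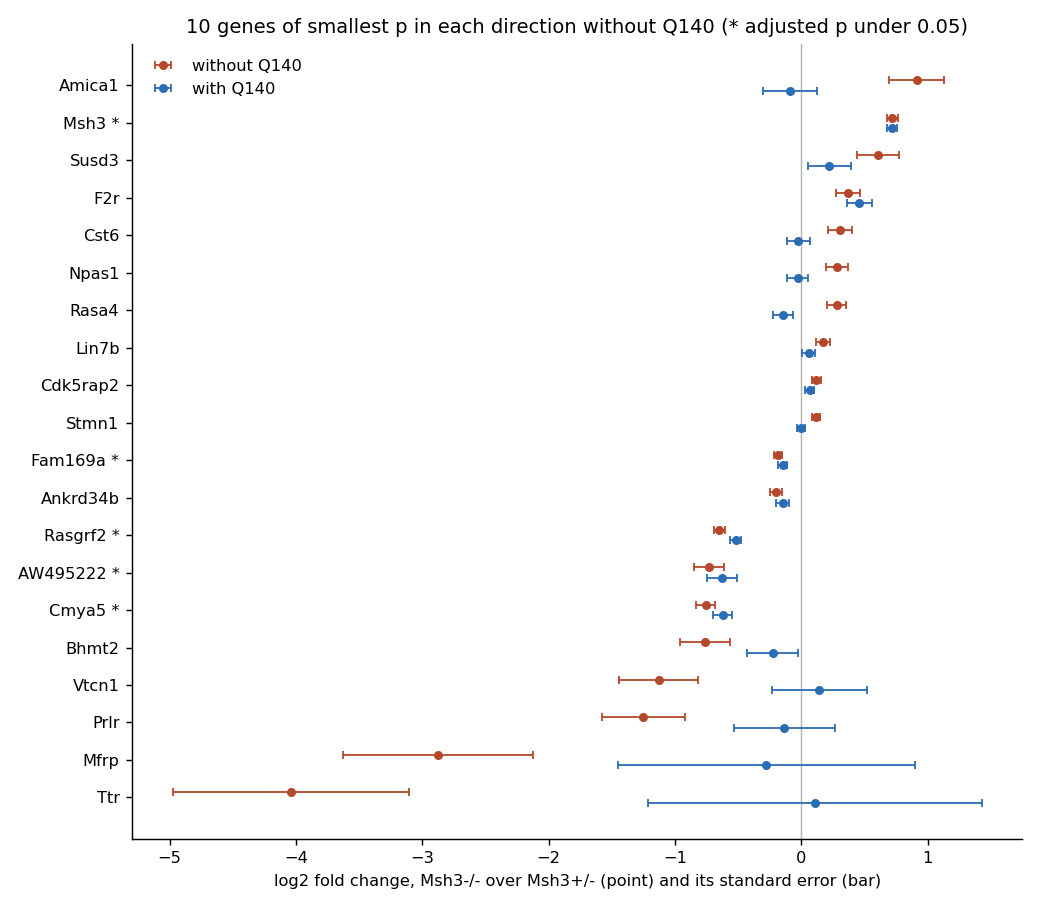
Log2 fold change (points) and its standard error (bars) for the 10 genes of smallest p in each direction without Q140, beside the same genes with Q140; asterisks mark an adjusted p under 0.05 without Q140. Msh3, F2r, Fam169a, Ankrd34b, Rasgrf2, AW495222, Cmya5, Bhmt2, Susd3, Lin7b, Cdk5rap2, Prlr and Mfrp lie on the same side in both, and Amica1, Cst6, Npas1, Rasa4, Stmn1, Vtcn1 and Ttr lie on opposite sides.

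Msh3 was the sole mismatch repair gene called, beside 5 (0.0256%) of all 19547 genes tested. Of 25 genes on the list of mismatch repair and repeat-expansion modifiers, all were tested, 1 rose (Msh3) and none fell, with 13 above 0 and 12 below; the list's median log2 fold change was 0.0014, beside 0.0017 over all genes. Msh6, the MutSα subunit gene, had 20.1 ± 1.03 CPM in Msh3-/- and 20.1 ± 1.51 CPM in Msh3+/- (log2 fold change 0.0014 ± 0.049). Exo1, the exonuclease of the pathway, had 0.744 ± 0.17 CPM in Msh3-/- and 1.08 ± 0.414 CPM in Msh3+/- (-0.53 ± 0.195, edgeR adjusted p = 0.864). Rrm2b, a ribonucleotide reductase subunit, had -0.09 ± 0.037 (adjusted p = 0.864), and the log2 fold changes of the remaining members, Msh3, Msh6, Exo1 and Rrm2b aside, ran from -0.08 for Pms1 to 0.10 for Fen1. In deposited FPKM, a level per length, Msh3 averaged 8.83 ± 0.778 in Msh3-/-, 5.32 ± 0.309 in Msh3+/- and 1.98 ± 0.112 in WT (SD, n = 8 each). It stood above Msh6 in Msh3-/- (4.74 ± 0.232) and in Msh3+/- (4.71 ± 0.388), and below Msh6 (4.83 ± 0.348) and Mlh3 (4.70 ± 0.271), a MutL subunit gene, in WT. The order depends on the lengths behind FPKM, which were 11254 bases for Msh3, 4254 for Msh6 and 5446 for Mlh3. In CPM, the WT mean of Msh3 (22.4) was above that of Msh6 (20.7) and below that of Mlh3 (25.8).

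**Figure D4:**
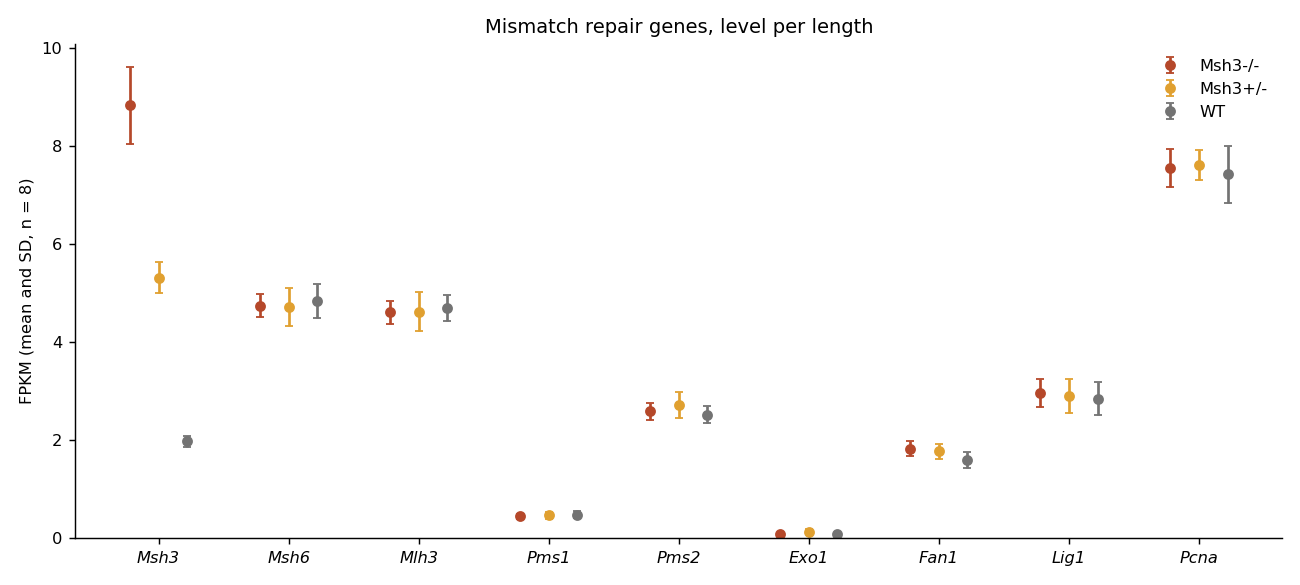
Mean FPKM and SD of 8 libraries for 9 mismatch repair genes in Msh3-/-, Msh3+/- and WT, on a linear axis. Msh3 has means of 8.83 FPKM in Msh3-/-, 5.32 FPKM in Msh3+/- and 1.98 FPKM in WT, while Msh6 has 4.74 FPKM in Msh3-/-, 4.71 FPKM in Msh3+/- and 4.83 FPKM in WT.

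Beyond the window, none of the genes of smallest p passed in the main fit, and those higher in Msh3-/- are given here. Stmn1, which encodes the microtubule regulator stathmin, had 124 ± 4.17 CPM in Msh3-/- and 114 ± 4.69 CPM in Msh3+/- (SD, n = 8 each; log2 fold change 0.12 ± 0.032, edgeR adjusted p = 0.543). Amica1, an adhesion molecule gene of immune cells, had 0.855 CPM in Msh3-/- and 0.435 CPM in Msh3+/- (0.91 ± 0.219, adjusted p = 0.321). Rasa4, a Ras GTPase-activating protein gene, had 9.34 CPM in Msh3-/- and 7.70 CPM in Msh3+/- (0.28 ± 0.075), and Susd3 had 1.06 CPM in Msh3-/- and 0.693 CPM in Msh3+/- (0.61 ± 0.17). The others above 0 were Lin7b (0.17 ± 0.052), a synaptic scaffold gene, Npas1 (0.28 ± 0.085), a transcription factor of interneurons, Cdk5rap2 (0.12 ± 0.037), a centrosome gene, and Cst6 (0.31 ± 0.095), a cystatin. Among mice with Q140, 3 of these 8 genes were again above 0: Susd3 had 0.22 ± 0.167, Lin7b 0.06 ± 0.052 and Cdk5rap2 0.07 ± 0.037. The other 5 were below 0: Amica1 had -0.09 ± 0.215, Rasa4 -0.14 ± 0.077, Stmn1 -0.01 ± 0.032, Npas1 -0.03 ± 0.083 and Cst6 -0.02 ± 0.094.

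Markers of cortical neurons were high, as the tissue label gives. Slc17a7, the vesicular glutamate transporter of cortical neurons, ran from 1231 to 1451 CPM over the 16 libraries, while Drd1 and Adora2a, genes of striatal neurons, had medians of 5.98 and 1.83 CPM. Fewer cells of a type and less RNA per cell cannot be told apart in bulk tissue. Of 27 gene lists, 3 had a member called by edgeR in the fit with sex: the mismatch repair list, and the lists of upper-layer neurons and of thrombin receptors and Ras exchange factors, in both of which the called gene was Rasgrf2. Over all 19547 genes tested, 5 (0.0256%) were called and 51.0% had a log2 fold change above 0. Upper-layer genes had 1 of 17 called, lower, and a median log2 fold change of -0.01; Unc5d, a netrin receptor gene, had -0.11 ± 0.053 (edgeR adjusted p = 0.864) and Cux2 had -0.01. Of the 14 thrombin receptor and Ras exchange genes 3 were above 0, and Rasgrf1, the close relative of Rasgrf2, had 514 CPM in Msh3-/- and 546 CPM in Msh3+/- (-0.09, adjusted p = 0.885). Of 25 DNA damage and p53 genes 0 were called, with a median log2 fold change of 0.00054. Microglial genes had 15 of 17 above 0 with 0 called and a median of 0.06, beside a median of -0.02 in the comparison with Q140. Immediate early genes, induced by neuronal firing, had 19 of 20 below 0, 0 called and a median of -0.21, beside 51.0% of all genes above 0; Fosb had 19.6 ± 3.95 CPM in Msh3-/- and 25.4 ± 8.73 CPM in Msh3+/-. Without Msh3+/- F1, the library highest in Fosb, 17 of these 20 genes were below 0 and their median was -0.13. In the comparison with Q140 their median was 0.14. Grin2d, an NMDA receptor subunit gene, had 0.17 ± 0.058 without Q140 and -0.05 ± 0.058 with it. Cort, the cortistatin gene of interneurons, had -0.46 ± 0.2, and the striatal genes Meis2 and Ppp1r1b had 0.15 ± 0.059 and 0.13 ± 0.058 (adjusted p = 0.864 for each, edgeR).

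Transcripts of neighbouring tissue varied between libraries, and their part in other differences was not tested beyond the values here. Over all genes tested, 0.0256% were called, 5.73% had an unadjusted p under 0.05 and 51.0% were above 0. Of 9 choroid plexus genes tested, all were below 0 with an unadjusted p under 0.05 and none was called by edgeR, with a median log2 fold change of -1.57. DESeq2 called 1 of them, Ttr (adjusted p = 0.00062), as did edgeR without a sex term (adjusted p = 0.0474). Their summed level ran from 10.8 to 19.9 CPM in Msh3-/- and from 11.9 to 30.1 CPM in the other 7 Msh3+/- libraries, with Msh3+/- M2 at 636 CPM. Ttr, the carrier protein transthyretin, had 576 CPM in that library, and its highest level was 16.9 CPM in the other 7 and 12.2 CPM in Msh3-/- (log2 fold change -4.04 ± 0.934, edgeR adjusted p = 0.306). Without Msh3+/- M2 the Ttr value was -0.50 ± 0.551, that of Mfrp, a frizzled-related membrane protein gene, was 0.17 ± 0.467 against -2.88 ± 0.749 with it, and the list's median was -0.20 with 2 of 9 under an unadjusted p of 0.05. The prolactin receptor gene Prlr had -1.25 ± 0.327 with that library and -0.57 ± 0.218 without it. Vtcn1, an inhibitory ligand of T cells, had -1.13 ± 0.312 with it and -1.06 ± 0.33 without it. Pituitary genes summed to at most 3.74 CPM in Msh3-/- (M4) and to 14.02 and 4.88 CPM in Msh3+/- M1 and M3; Prl was at 0 in 7 of the 16 libraries. Blood genes summed to 22.5, 10.2 and 8.70 CPM in Msh3-/- F4, F1 and F2, and to at most 7.15 CPM in Msh3+/- (F4); 4 of 5 were above 0, with a median log2 fold change of 1.23, or 0.81 without Msh3-/- F4. Meningeal genes had 10 of 12 below 0, 0 called by edgeR and a median log2 fold change of -0.20; their sums had medians of 428 CPM in Msh3-/- and 578 CPM in Msh3+/-. In the comparison with Q140 the list medians were -0.89 for blood, 0.11 for choroid plexus, -1.02 for pituitary and -0.0023 for meningeal genes. The 5 called genes were called again without Msh3+/- M2, Msh3-/- F4 and Msh3-/- F2, the last the highest in meningeal genes. That removal was chosen after seeing the data. The planned removal of the 12 libraries flagged for choroid plexus or pituitary transcripts left 7 Msh3-/- and 4 Msh3+/- libraries. There Msh3, Rasgrf2 and Cmya5 were called again, and AW495222 and Fam169a were not.

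**Figure D5:**
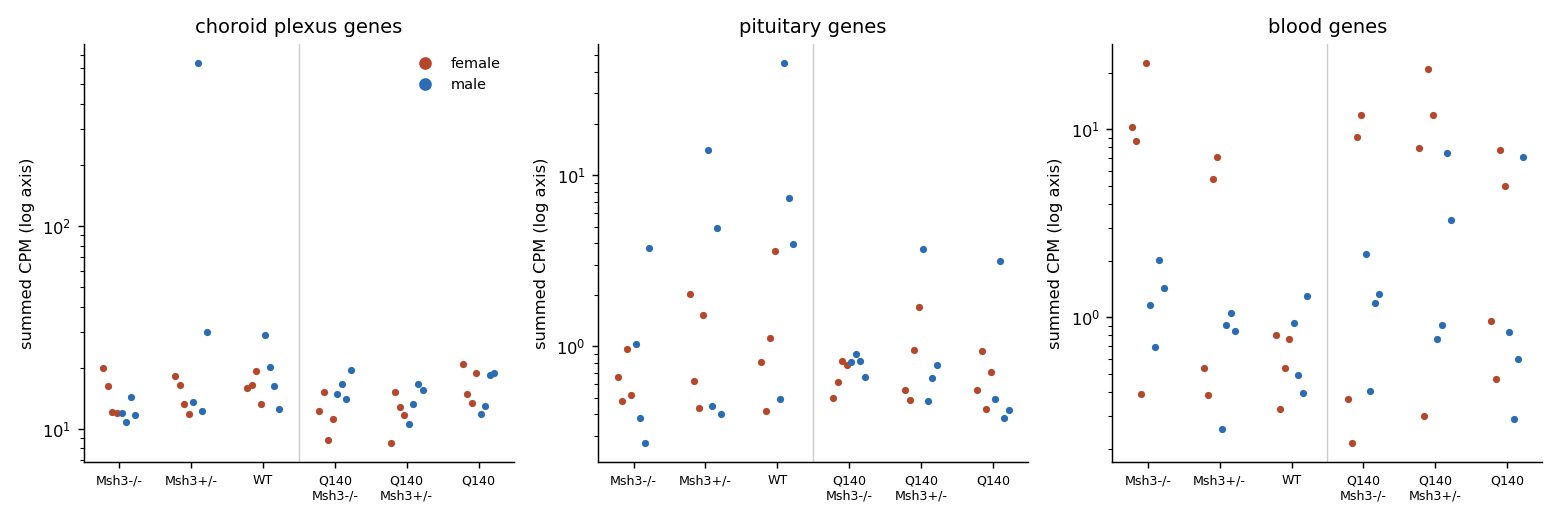
Summed CPM of choroid plexus, pituitary and blood genes in each library (points, log axis) in 6 groups. Msh3+/- M2 stands at 636 CPM of choroid plexus genes, while the Msh3-/- libraries lie between 10.8 and 19.9 CPM.

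Library totals were 42.3 to 60.5 M counts (M for mega) in Msh3-/- and 41.6 to 58.6 M in Msh3+/-, within the 37.7 to 68.3 M of the series. Sex genes matched the label in all 16 libraries. Over the 48 libraries of the fit they matched in 47, and Q140 F1, labelled female, was unclear. No pair of libraries of the series correlated above 0.992 across genes. The median standard error of a log2 fold change was 0.073.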

How the data were processed

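RNA was sequenced from mouse cerebral cortex. The authors deposited whole-number counts per Ensembl gene and FPKM, which divide those counts by a fixed length and the library total. Per the submitters' processing notes, the tools were HTSeq 0.12.3, SAMtools 1.10 and STAR 2.7.5c, and the build names mm10 and GRCm38, without roles. Per the labels' protocols the library kit was stranded; the annotation release and the strand setting of the counting are not given in the sources used here. The extraction protocol speaks of striatum at another age; tissue and age labels give cerebral cortex at 12 months, which was used.

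The counts were fitted with edgeR 4.0.16 (R 4.3.3; TMM, filterByExpr with minimum count 10 and total 15, 6 groups and sex, all 48 libraries, glmQLFit with legacy off and robust on, glmQLFTest two-sided), and 19547 of 48795 genes were tested. A gene was called at a Benjamini-Hochberg adjusted p under 0.05 over all of them. Alternatives used DESeq2 1.42.0 and limma 3.58.1, and the model was tested on simulated data. There it called 24 of 50 genes changed by a fold of 1.15 and 37 of 50 changed by 1.3. At folds of 1.5 and 2 it called 41 and 49 of 50, and it called 4 of 19347 unchanged genes. All changed genes had a mean count of 20 or more and were changed together in 1 simulation. Many true changes loosen the adjusted p threshold. These shares are therefore not detection rates for the main comparison, where 5 genes were called. Positions are GENCODE M21, matched by ID for 19474 tested genes; promoters are RefSeq's, found for 6 of 6 genes looked up. FPKM served for levels between genes. Named genes were Msh3, the 10 genes of smallest p in each direction (mean count 20 or more in whichever group was higher, Gm and Rik models left out), the mismatch repair list and the 2 members of smallest p in other lists; some items these rules name are not reported here. Dmgdh, Zfyve16, Serinc5, Mtx3, F2rl2, AA467197, Gm17324, 2510009E07Rik, Cux2 and Rasgrf1 were named after their values were seen. The members and the gene lists were chosen with earlier results of these data known.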

Additional observations from a re-analysis of the deposited data

Results flagged for a closer look

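Values were examined in 76 groups of 8 libraries, in Msh3-/- and Msh3+/-, for a library far from the others by Dixon's ratio. Chance alone flags about 1 group in 20 when groups are normal, independent and chosen without regard to their values. That was not so here: Ttr, Mfrp and Prlr were named for their small p, and Ttr also counts within the choroid plexus sum. The number of flags therefore cannot be compared with that rate. By this ratio 14 values stood out. In Msh3+/- M2 these were the choroid plexus sum (636 CPM), Ttr (576 CPM), Mfrp (7.08 CPM) and Prlr (5.13 CPM). In Msh3-/-, Ttr in F1 (12.2 CPM), Mfrp in M3 (0.342 CPM), the striatal signalling gene Ppp1r1b in M3 (116 CPM), the pituitary sum in M4 (3.74 CPM), and the blood sum (22.5 CPM) and Hbb-bs (15.3 CPM) in F4 were highest and apart. In Msh3+/-, the pituitary sum in M1 (14.02 CPM), Exo1 in M3 (1.92 CPM) and Fosb in F1 (45.3 CPM) were highest and apart, and F2r in M4 (2.76 CPM) was lowest and apart. None of these values belonged to Msh3, Rasgrf2, Cmya5, AW495222 or Fam169a.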

How the results depend on the processing

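Msh3, Rasgrf2 and Cmya5 were called in all 32 fits of the main comparison, AW495222 in 29 and Fam169a in 27. The 5 calls became 3 with females alone, and leaving out 1 library gave from 5 to 5 calls, and from 0 to 0 farther than 20 Mb from Msh3. Farther than 20 Mb, 1 gene was called without a sex term and by DESeq2 (Ttr in both, -4.49 and -3.99 on the log2 scale). Without the 12 libraries flagged for choroid plexus or pituitary transcripts, which leaves 7 Msh3-/- and 4 Msh3+/-, 1 gene was called there. It was the gene model 2510009E07Rik (-0.28). The cause of these calls was not tested. In Q140 mice the 4 calls became 2 with males alone, where fewer samples were fitted. Signs turned for values near 0 or led by Msh3+/- M2. Without the 12 libraries, the log2 values were 0.0024 for Mfrp and -0.0071 for Msh6. With females alone they were 0.28 for Ttr, 0.33 for Mfrp and -0.0083 for Msh6. Without Msh3+/- M2, Msh3-/- F4 and Msh3-/- F2, chosen after seeing the data, they were 0.26 for Mfrp and -0.019 for Msh6. Leaving out 1 library gave -3.22 to 0.17 for Mfrp and -0.021 to 0.021 for Msh6. With the replicate block, 3 genes were called; same-numbered libraries correlated from -0.22 to 0.27, and only F4 correlated best with its own number, so the numbers were not taken as pairs. With the prefix of the library name as a random block (consensus correlation 0.10), the 5 genes of the main fit were called. They were also called with a plate column term beside sex. Mfrp had no value with a minimum mean of 1 CPM, with the 16 libraries alone or with the replicate block. Low counts limit the precision of genes under 1 CPM, where the error of Amica1 or Bhmt2 was about 0.2 on the log2 scale.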
